A study of Mus musculus with 50 samples.

Results

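Among the 37310 genes counted in mouse embryonic stem cells labelled as wild type or as lacking the histone methyltransferase NSD1, 3 genes at 2 loci were followed here: AY036118, Ccdc107 and RNase_MRP. They were chosen by their share of all counts: AY036118 held more counts than any other gene in all 6 RNA libraries, and Ccdc107, which lies opposite RNase_MRP, was the third in each. Since that share chose them, their levels are a description and carry no test. RNase_MRP was added for its place opposite Ccdc107, and its own share did not choose it.

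Ribosomal RNA other than 5S is made by RNA polymerase I as a long precursor. This precursor carries the RNA of the small subunit (18S) and those of the large subunit apart from 5S. They are separated by internal transcribed spacers that are cut out and degraded. RNase MRP is an enzyme of 1 RNA and several proteins. It cuts the precursor within the first internal spacer, the stretch that follows the 18S RNA, and its RNA is made by RNA polymerase III. Ccdc107 encodes a coiled-coil protein.

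The RNA libraries came from the J1 embryonic stem cell line, strain 129S4/SvJae, untreated and grown on gelatin in medium with serum and leukemia inhibitory factor. The groups were wild type cells and 2 NSD1-/- lines, KO1 and KO2, with 2 libraries each. How the lines were made is not given in the labels, nor do they say if replicates were grown separately, and p-values therefore measure the spread between libraries, which may be technical. RNA was extracted as total RNA, and the labels do not say whether ribosomal RNA was removed. The other 44 samples of the series are not analysed here.

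Library totals ranged from 1150089 to 1285487 counts. Each of the 12 embryonic stem cell markers had counts in at least 1 library, 362 to 404 in all per library. Among them Klf4 (133 to 174) and Sox2 (66 to 100) had the most. Pou5f1 had 14 to 23 counts, Nanog 1 to 14, Tdgf1 1 to 4 and Dppa4 1 to 3. Lin28a had 10 to 22, but Gm13061, which faces it, had 362 to 515. Of the 6 fibroblast markers, 4 (Col1a2, Col3a1, Thy1 and Postn) were at 0 in every library. Col1a1 had 0 to 2 counts and Acta2 0 to 1, but Gm17329, which faces Col1a1, had 1 to 94. The primitive endoderm markers had 0 to 2 counts in all per library. Of the 3 neuroectoderm markers in the tables, Nes had 0 to 3 counts, Tubb3 3 to 8 and Pax6 159 to 215, and Pax6 faces Elp4, which had 0 to 1. Nsd1, the gene the lines are labelled as lacking, had 21 and 25 counts for wild type, 55 and 38 for the libraries labelled KO1, 27 and 21 for those labelled KO2, so its count did not fall in the libraries labelled as knockout. By edgeR it was called higher in KO1 than in wild type (0.94 ± 0.27 on the log2 scale, adjusted p = 0.0230) and than in KO2 (0.89 ± 0.27, adjusted p = 0.0187). In KO2 it was at 0.05 against wild type (edgeR adjusted p = 0.945). Both calls were lost by DESeq2 (adjusted p = 0.266 and 0.203) and without KO1 replicate 1 (edgeR adjusted p = 0.290 and 0.238). The first was lost without wild type replicate 1 (edgeR adjusted p = 0.144) or wild type replicate 2 (0.0529), and the second without KO2 replicate 2 (0.190). KO1 and KO2 below mean the libraries so labelled. Genes with another gene opposite them on at least 50 exon bases were 13.1% of all genes, yet they held 85.7% to 87.8% of the counts apart from AY036118. Which strand the library kit keeps is not given in the labels, so a count may belong to the gene named or to the RNA opposite, and which of them was not tested. Nsd1 has no counted gene opposite, and its count is a weak check of the labels.

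Both loci carry a structural RNA on the strand opposite to the gene that received the counts. On chromosome 17 of the mm9 build, AY036118 (a pseudogene of 4 exons and 714 exon bases) runs along the minus strand over the 3′ end of an 18S copy on the plus strand, chr17:39983298-39985146. That copy was 1849 bases long, the length of the RefSeq gene Rn18s-rs5. Of the exon bases of AY036118, 97 lay inside the 18S copy and 617 (86.4%) lay after its end, where the first internal spacer follows. The plus strand is printed for chr17:39985048-39985347, from the first base of AY036118, since it holds the junction from mature 18S to spacer. Capitals mark the 18S part and lower case the bases after it.

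18S end and spacer opposite AY036118: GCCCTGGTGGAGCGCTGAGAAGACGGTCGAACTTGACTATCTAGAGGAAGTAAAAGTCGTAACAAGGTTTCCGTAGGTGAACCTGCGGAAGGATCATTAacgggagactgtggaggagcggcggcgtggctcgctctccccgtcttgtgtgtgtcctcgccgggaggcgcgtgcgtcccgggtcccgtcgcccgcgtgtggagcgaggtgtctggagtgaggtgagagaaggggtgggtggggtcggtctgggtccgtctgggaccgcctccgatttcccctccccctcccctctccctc

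The bases after the 18S end were 71.2% G or C, against 55.4% in the 18S copy and 37.5% in the 1000 bases that follow AY036118. No stretch of 50 bases of AY036118 was found elsewhere in the mm9 sequence, either in the part inside 18S or in the part after it. Copies absent from the assembled sequence could not be searched, and whether the counts came from this locus alone was not tested. By contrast, 541 of 1800 such stretches of the 18S copy (30.1%) occurred elsewhere. A count per gene does not tell how many fragments came from the 18S end and how many from the spacer.

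On chromosome 4, Ccdc107 (chr4:43505772-43508793, plus strand, 1547 exon bases in 5 blocks) begins opposite RNase_MRP (chr4:43505660-43505930, minus strand, 271 bases). Its first exon block, chr4:43505772-43505895, lay opposite RNase_MRP on all of its 124 bases. These bases were 8.02% of the exon bases of Ccdc107 and 45.8% of RNase_MRP. The RNase_MRP sequence is shown 5′ to 3′ on its own strand, with capitals for the bases opposite the Ccdc107 exon.

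RNase_MRP: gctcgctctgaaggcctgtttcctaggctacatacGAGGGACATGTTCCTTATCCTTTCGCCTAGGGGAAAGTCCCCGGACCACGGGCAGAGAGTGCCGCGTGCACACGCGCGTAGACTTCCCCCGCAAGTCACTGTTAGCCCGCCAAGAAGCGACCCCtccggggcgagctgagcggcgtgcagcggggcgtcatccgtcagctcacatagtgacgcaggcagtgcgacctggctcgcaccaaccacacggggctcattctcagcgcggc

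RefSeq gives 275 bases for this gene under the name Rmrp, and the 271 bases were 64.2% G or C. No stretch of 50 bases of RNase_MRP was found elsewhere in the genome. A second gene with the name RNase_MRP, chr10:5778328-5778567 on the plus strand, matched it over 155 bases at 72.3% identity. That gene had 0 counts in every library, which allows 3 counts in each.

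**Figure D1:**
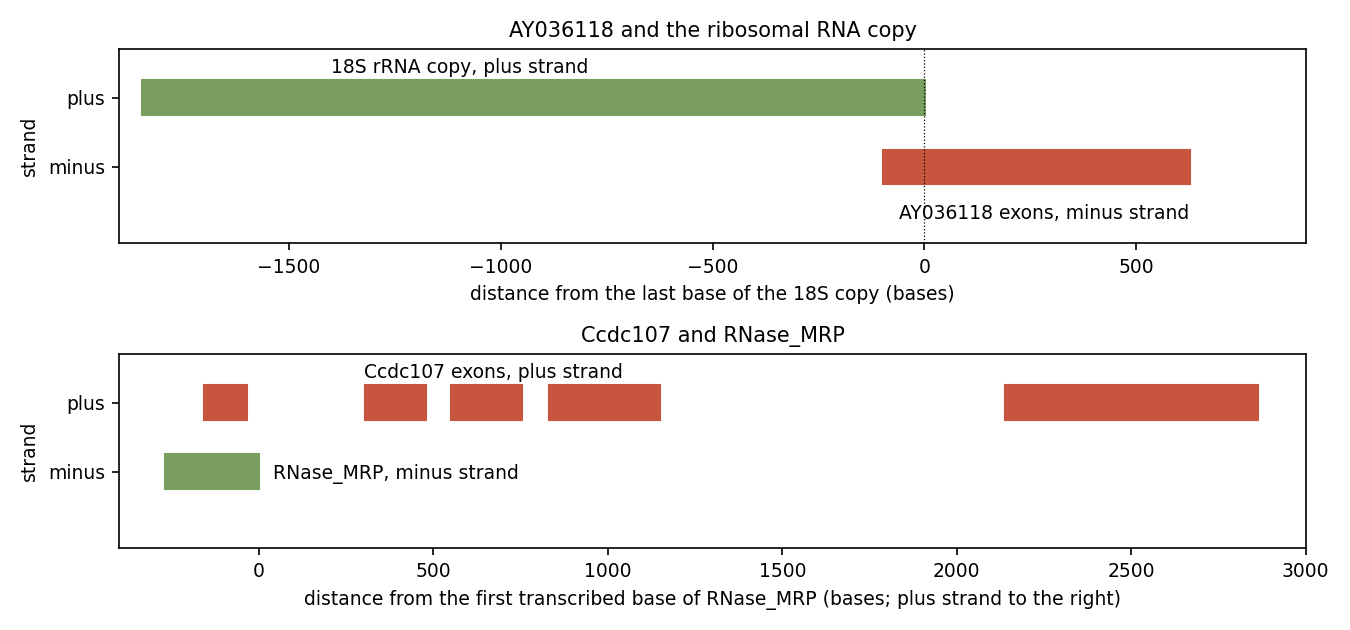
Exons of AY036118 and Ccdc107 (red) and the structural RNAs opposite them (green), by strand, against distance in bases from the last base of the 18S copy (top) and from the first transcribed base of RNase_MRP (bottom). AY036118 crosses the 18S end, with 617 of its 714 exon bases beyond it, and only the first of 5 Ccdc107 exon blocks faces RNase_MRP.

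AY036118 took about the same large share of every library. It had 425617 and 454011 counts for wild type, 389394 and 444318 for KO1, 371777 and 446721 for KO2. These were 35.4% and 36.7% of all counts for wild type, 33.3% and 37.2% for KO1, 32.3% and 34.8% for KO2. Wild type and KO1 overlapped, since the highest share of all was in KO1 and replicate 1 of wild type lay between the 2 KO1 libraries. Both KO2 libraries were below both wild type libraries. The 95% Wilson intervals of these shares spanned less than the space between any 2 replicates; for wild type replicate 1 the interval was 35.3% to 35.4%. Such intervals cover counting error only. Replicate 2 was higher than replicate 1 in all 3 groups, by 1.32, 3.89 and 2.43 percentage points in wild type, KO1 and KO2, or 21.4, 62.7 and 40.1 times the counting error of that difference. The mean share was 36.02% ± 0.931 in wild type (SD, n = 2), 35.3% ± 2.75 in KO1 (SD, n = 2) and 33.5% ± 1.71 in KO2 (SD, n = 2). The spread between 2 libraries of the same knockout line was thus larger than the difference between the wild type mean and the mean of the 4 knockout libraries, 34.4%. The knockout mean was lower, at -1.62 points from wild type. No p is given for it, since an exact permutation test of 4 libraries against 2 cannot go below 0.133.

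The next gene in order, Gm17431, had 1.92% to 2.15% of the counts, and AY036118 had 15.0 to 19.3 times the counts of the next gene in each library. Per base of exon, AY036118 carried 521 to 636 counts and Ccdc107 12.5 to 15.3.

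Ccdc107 had 21489 and 19715 counts for wild type, 21420 and 20878 for KO1, 23707 and 19291 for KO2. Because AY036118 sets so much of each total, its share was taken of the counts apart from AY036118. That share was 2.76% and 2.52% for wild type, 2.75% and 2.78% for KO1, 3.05% and 2.30% for KO2. The KO2 line thus held both the highest and the lowest library of the 6, and the wild type and KO1 libraries lay between them. Replicate 2 minus replicate 1 was -0.247 points in wild type and -0.746 points in KO2, or 9.62 and 29.3 times the counting error, while in KO1 it was 0.0362 points, 1.36 times the counting error. The means were 2.64% ± 0.175 (SD, n = 2) in wild type and 2.72% ± 0.310 (SD, n = 4) over the knockout libraries, a difference of 0.0805 points, for which no p is given either. That difference turned to -0.0430 points without wild type replicate 2 and to -0.0284 points without KO2 replicate 1.

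RNase_MRP on its own strand had 246 and 236 counts for wild type, 299 and 293 for KO1, 300 and 263 for KO2. All 4 knockout libraries were above both wild type libraries in raw counts. How many of all tested genes separate the groups in this way was not counted. An exact permutation test of 4 libraries against 2 cannot go below 0.133, so the separation is a description. In CPM (counts scaled to a common library size) after TMM scaling, which sets libraries to a common level from genes of middling ratio, RNase_MRP was at 211 and 196 for wild type, 236 and 240 for KO1, 262 and 212 for KO2. The knockout values again lay above the wild type values, by 1 library's narrow margin. As a share of the counts apart from AY036118 the groups overlapped: 0.0316% in wild type replicate 1 against 0.0314% in KO2 replicate 2.

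Both strands of the RNase_MRP locus could be set against each other within a library, where no scaling enters. For each count at RNase_MRP there were 87.4 and 83.5 counts at Ccdc107 for wild type, 71.6 and 71.3 for KO1, 79.0 and 73.3 for KO2. The RNase_MRP strand thus took 1.13% and 1.18% of the pair's counts in wild type and 1.25% to 1.38% in the knockout libraries. The groups did not overlap. Wilson intervals did: 1.04% to 1.34% in wild type replicate 2 and 1.12% to 1.40% in KO2 replicate 1. That strand had 236 to 300 counts. No test was run on this ratio, which was looked at after the values were seen. How many other facing pairs separate the groups in this way was not counted.

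**Figure D2:**
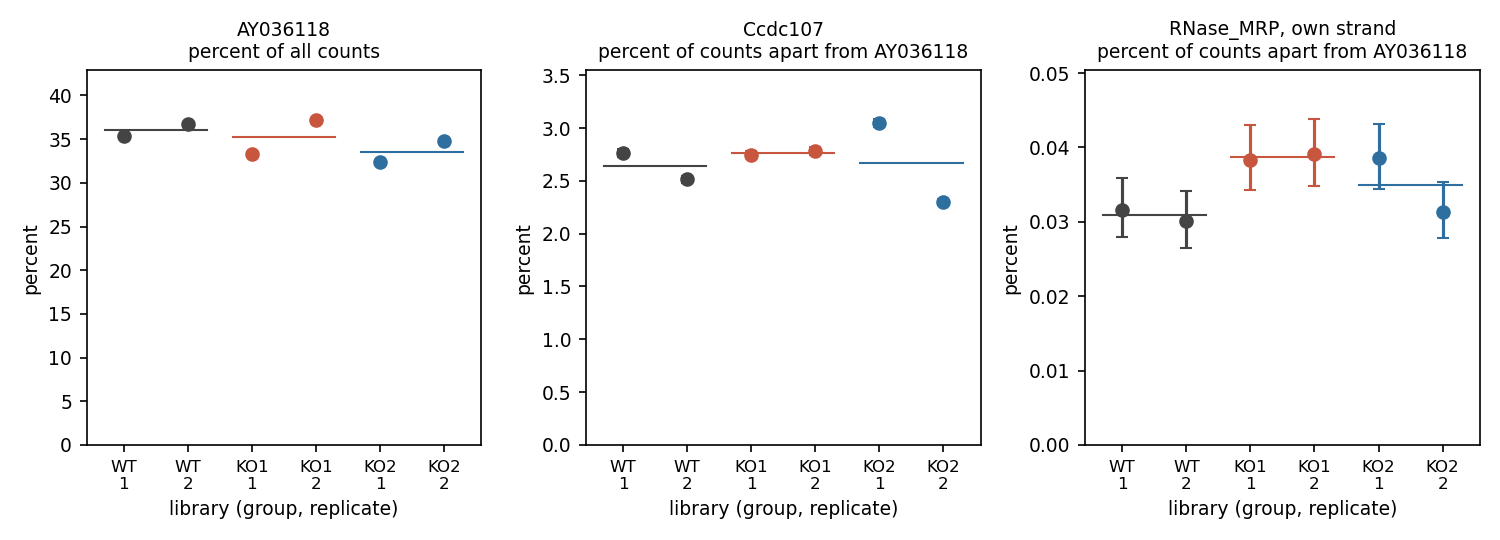
Share of counts in each library, in percent, for AY036118 (of all counts), Ccdc107 and RNase_MRP (of counts apart from AY036118), with 95% Wilson intervals, which are hidden by the points in the first panel and most of the second, and a line at each group's mean. AY036118 lies between 32.3% and 37.2%, where wild type and KO1 overlap and both KO2 libraries lie below wild type. KO2 holds the highest and the lowest Ccdc107 value.

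None of the members was called in the comparison of both NSD1-/- lines with wild type, although AY036118 was called when the replicate number was a block. The test was edgeR's quasi-likelihood fit of all 5034 genes that passed the filter on low counts, called at a Benjamini-Hochberg adjusted p under 0.05. It called 6.62% of all tested genes and 0 of 3 members, with 1 member under 0.05 before adjustment, and DESeq2's Wald test called 0. AY036118 had a log2 fold change of -0.13 ± 0.09 (SE, edgeR adjusted p = 0.568) and Ccdc107 one of 0.01 ± 0.15 (adjusted p = 0.978). RNase_MRP was at 0.22 ± 0.09 (unadjusted p = 0.0238, adjusted p = 0.178), which passed the threshold without KO2 replicate 2 (0.30, edgeR adjusted p = 0.0361).

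In KO1 against wild type, edgeR called 9.79% of tested genes and 0 of 3 members, again with 1 under 0.05 before adjustment and 0 by DESeq2. AY036118 was at -0.14 ± 0.11 (edgeR adjusted p = 0.545), Ccdc107 at -0.03 ± 0.17 (adjusted p = 0.956) and RNase_MRP at 0.23 ± 0.11 (adjusted p = 0.198). RNase_MRP passed only when libraries were scaled by their total without AY036118 (0.33, edgeR adjusted p = 0.0433), a scaling that raised the median of all genes in this comparison by 0.10.

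In KO2 against wild type the share called was 8.98%, with 0 of 3 members by edgeR, 0 under 0.05 before adjustment and 0 by DESeq2. AY036118 was at -0.12 ± 0.10 (edgeR adjusted p = 0.607), Ccdc107 at 0.06 ± 0.17 (adjusted p = 0.900) and RNase_MRP at 0.22 ± 0.11 (adjusted p = 0.241). The RNase_MRP value was 0.0818 without KO2 replicate 1 (edgeR adjusted p = 0.822) and 0.37 without KO2 replicate 2 (adjusted p = 0.0507). Between the lines, KO1 against KO2, edgeR called 19.3% of genes and 0 of 3 members, with 0 before adjustment and 0 by DESeq2. AY036118 differed by -0.03 ± 0.10 (edgeR adjusted p = 0.898), Ccdc107 by -0.09 ± 0.17 (adjusted p = 0.784) and RNase_MRP by 0.01 ± 0.10 (adjusted p = 0.949). The 3 comparisons with wild type share the 2 wild type libraries.

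The spread between replicates set these errors. The coefficient of biological variation, the part of the spread beyond counting, was 4.46% over all tested genes. It was 7.69% for AY036118 and 12.0% for Ccdc107, where the trend fitted over abundance gave 4.16% and 4.08%; no other gene is near the abundance of AY036118. A fold change of AY036118 within 2 SE of its estimate, from -0.31 to 0.05 on the log2 scale for both lines, is therefore compatible with these libraries. Single libraries decided calls at both genes. Without KO1 replicate 2, AY036118 was called lower in both lines (-0.20, edgeR adjusted p = 0.00158), in KO1 (-0.28, adjusted p = 0.000876) and in KO1 against KO2 (-0.16, adjusted p = 0.0358). Without KO2 replicate 2 it was called in both lines (-0.16, adjusted p = 0.00504), in KO1 (-0.14, adjusted p = 0.0219) and in KO2 (-0.18, adjusted p = 0.0229). Without KO2 replicate 1 it was called in KO1 (-0.14, edgeR adjusted p = 0.0288). Ccdc107 was called only without KO2 replicate 2, in KO2 (0.26, edgeR adjusted p = 5.43e-05) and in KO1 against KO2 (-0.29, adjusted p = 1.22e-06), while without KO2 replicate 1 its value in KO2 was -0.14 (adjusted p = 0.0991). With no filter on low counts AY036118 passed in both lines (-0.13, edgeR adjusted p = 0.0293) and in KO1 (-0.16, adjusted p = 0.0117). With the replicate number as a block it passed in both lines (-0.13, edgeR adjusted p = 0.0242) and in KO1 (-0.15, adjusted p = 0.0248). Whether the numbers pair the libraries could not be settled. Scaling moved its size as well: in KO1 it was -0.0309 under total counts and -0.0448 under total counts without AY036118, and for both lines -0.0670 and -0.101, with no call (edgeR adjusted p from 0.426 to 0.887).

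**Figure D3:**
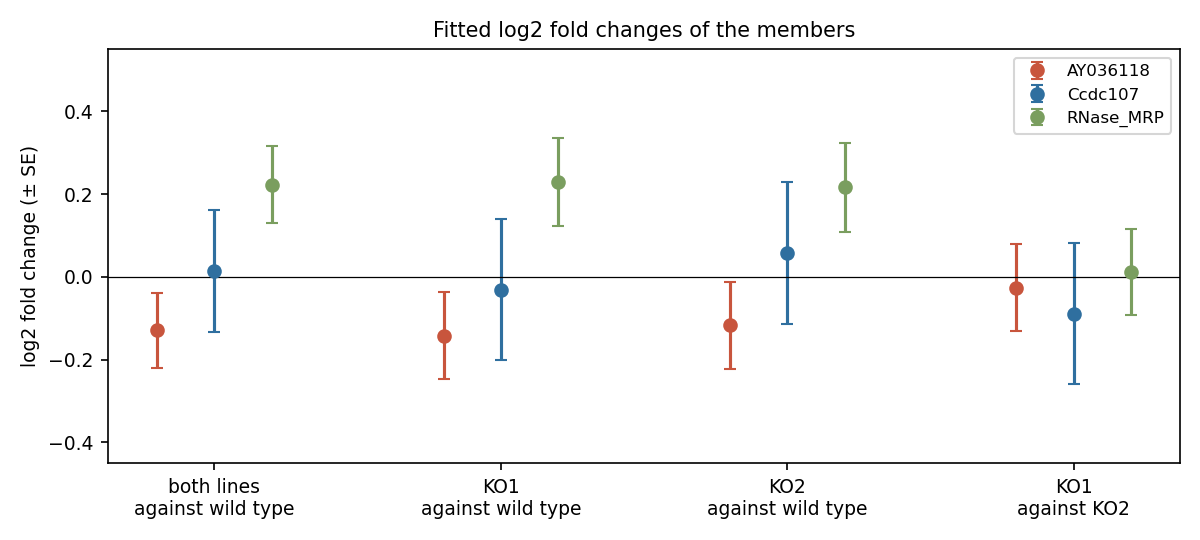
Fitted log2 fold changes of AY036118, Ccdc107 and RNase_MRP with their standard errors (edgeR, TMM scaling, 6 libraries) in 4 comparisons. Under TMM the values of AY036118 are below 0, Ccdc107 has the widest errors, and RNase_MRP is at 0.22 or 0.23 against wild type; AY036118 between the lines, and Ccdc107 in KO1 and between the lines, turn sign under total counts.

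AY036118 also enters the number by which every other gene is divided. Scaling each library by its total alone gave weight to it: leaving it out changed a library's scaling by up to 4.05%. Under TMM the same step changed it by up to 1.13%, and under DESeq2's median of ratios by up to 0.00769%. TMM itself differed from the total by up to 7.54%, and from the total without AY036118 by up to 5.40%.

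The TMM factor, which multiplies the library total, was 0.970 and 0.971 for wild type, 1.082 and 1.021 for KO1, 0.997 and 0.964 for KO2. With AY036118 left out of the table it was 0.987 and 0.999 for wild type, 1.048 and 1.049 for KO1, 0.960 and 0.960 for KO2. The 2 sets of factors multiply different totals, with and without AY036118, so the gap between replicates cannot be compared between them. The scaling that results, relative to a geometric mean of 1, was 1.048 and 1.011 for KO1 with AY036118. Without it the KO1 scaling was 1.042 and 1.003. The TMM factor of KO1 was above 1 and that of KO2 below 1 in both libraries either way.

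**Figure D4:**
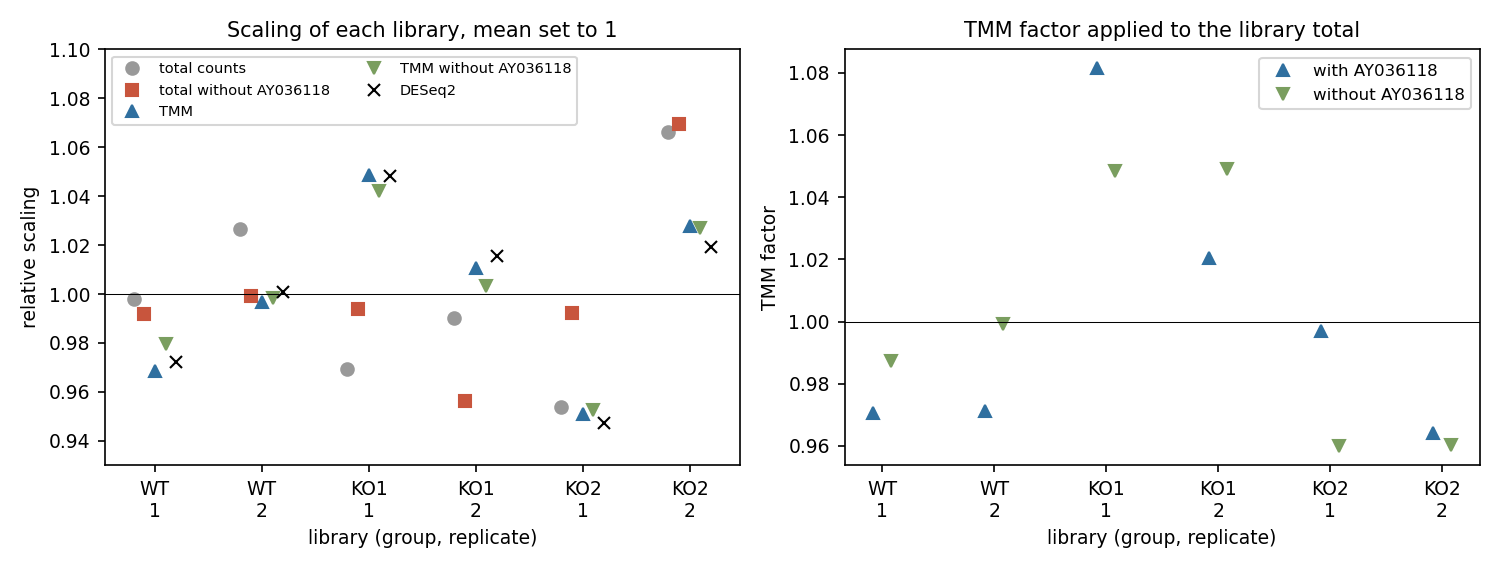
Left, scaling of each library by 5 methods, relative to a geometric mean of 1; right, the TMM factor with and without AY036118. Total counts (grey) and total counts without AY036118 (red) stand apart from TMM by up to 7.54% and 5.40%. Without AY036118 the 2 TMM factors of KO1 are 1.048 and 1.049, and they multiply a total that leaves it out.

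With AY036118 left out of the table, 337 genes were called for both lines against 333 with it, and 324 were the same genes. The counts were 516 against 493 in KO1 (478 the same), 482 against 452 in KO2 (451 the same) and 983 against 971 between the lines (957 the same). The share of higher genes among the calls moved with the scaling. In KO1 it was 35.3% under TMM, 40.7% under TMM without AY036118 in the table, 62.4% under total counts and 58.0% under total counts without AY036118. For both lines the share was 41.1% under TMM and 58.2% under total counts. In KO2 it was 55.8% under TMM and 44.7% under total counts without AY036118. Between the lines it was 41.1% under TMM, 59.5% under total counts and 65.7% under total counts without AY036118. Total counts raised the median log2 fold change of all tested genes to 0.12 in KO1 and in KO1 against KO2, from 0.00 and 0.02 under TMM, and total counts without AY036118 raised it to 0.10 and 0.16.

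Among the neighbours of both loci only Cd72 had more than 20 counts in a library. The 2 nearest genes on each side of AY036118, which were Gm20516, AC168268.1, AC188608.1 and Gm7148, had 0 counts in every library. At Ccdc107, Sit1 had 0 counts, Gm12454 0 to 2 and E130306D19Rik 12 to 20. Cd72, a B cell surface protein gene 38272 bases away, had 437 and 430 counts for wild type, 328 and 309 for KO1, 404 and 422 for KO2. It was lower in KO1 (-0.51 ± 0.09, edgeR adjusted p = 0.000103) and its KO1 libraries were below all others, while in KO2 it was at -0.08 (adjusted p = 0.621).

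Other structural RNAs were looked at in the same way. Of 3796 genes for ribosomal, small nuclear, small nucleolar and other small RNAs, 593 had at least 1 count on their own strand, and together they held 0.138% to 0.167% of all counts. The 26 counted genes that had such an RNA opposite on at least 20 exon bases held 4.78% to 5.89% of the counts apart from AY036118. Besides Ccdc107, only Tlcd1 (opposite Snord4a and Snord42a) and Gm17300 (opposite Snora73b and Snora73a) exceeded 1000 counts in a library. Tlcd1 also faces Rpl23a, a ribosomal protein gene, and Gm17300 faces Snhg3, the host gene of its snoRNAs, so that host and small RNA cannot be told apart there. Over the 6 libraries the Ccdc107 and RNase_MRP pair had 126500 counts at Ccdc107 and 1637 at RNase_MRP. Tlcd1 had 85331, against 24 at the snoRNA with the longer overlap.

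Tlcd1 and Gm17300 differed between the lines where Ccdc107 did not pass the test. Tlcd1 had 13410 and 12650 counts for wild type, 11382 and 11699 for KO1, 17681 and 18509 for KO2. It fell in KO1 by 0.24 ± 0.04 on the log2 scale (edgeR adjusted p = 0.000324), rose in KO2 by 0.46 ± 0.04 (adjusted p = 5.72e-09), and differed between the lines by -0.71 ± 0.04 (adjusted p = 7.61e-13). The KO1 call was lost under total counts (-0.13, edgeR adjusted p = 0.138) and without KO1 replicate 1 (-0.18, adjusted p = 0.0609). Gm17300 had 4770 and 4608 counts for wild type, 5547 and 5574 for KO1, 4026 and 3937 for KO2, and moved the other way: 0.18 ± 0.05 in KO1 (edgeR adjusted p = 0.0185) and -0.24 ± 0.05 in KO2 (adjusted p = 0.00146). The KO1 value lost its call without wild type replicate 2 (0.13, edgeR adjusted p = 0.159), without KO1 replicate 2 (0.14, adjusted p = 0.276), by DESeq2 (0.18, adjusted p = 0.111) and with no filter (0.16, adjusted p = 0.152). The KO2 value lost it without KO2 replicate 2 (-0.16, edgeR adjusted p = 0.0944).

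The other 7 of the 10 most abundant pairs were A330041J22Rik, Gm17328 (opposite SNORD103), Fxc1 (SNORA43), 9430041J12Rik (U1), Trim14 (SNORA36), Odf2 (U6) and Xkr5 (SNORA70), at means of 8.62 to 102 CPM. Fxc1 was called lower in KO1 (-0.64 ± 0.17, edgeR adjusted p = 0.0126), which was lost without wild type replicate 2 (adjusted p = 0.0918), without KO1 replicate 1 (adjusted p = 0.201), under total counts (-0.52, adjusted p = 0.0605) and by DESeq2 (adjusted p = 0.174). Of the 11 such genes tested, 1 was called higher and 2 lower in KO1, 1 and 1 in KO2, and 0 for both lines, where 9.79%, 8.98% and 6.62% of all tested genes were called and the medians were -0.14, -0.01 and 0.00 against 0.00, -0.01 and -0.01 over all tested genes. Between the lines 2 were higher and 2 lower in KO1 than in KO2, against 19.3% of all tested genes, with a median of -0.45 against 0.02. Of 25 structural RNA genes tested on their own strand, RNase_MRP among them, edgeR called 0 in each of the 3 comparisons with wild type and 2 in KO1 against KO2. These 2, named after their values were seen, were a 5S_rRNA gene and SNORA17. The 5S_rRNA gene was higher in KO1 than in KO2 (1.39 ± 0.47, edgeR adjusted p = 0.0336), from 6 to 19 counts a library. Its likeness to other 5S_rRNA genes was not searched. SNORA17 was lower (-0.83 ± 0.26, edgeR adjusted p = 0.0228), from 26 to 58 counts. The 5S_rRNA call was lost without any 1 of the 4 knockout libraries (edgeR adjusted p from 0.0707 to 0.170) and with no filter (0.0674). The SNORA17 call was lost without either KO1 library or KO2 replicate 2 (edgeR adjusted p from 0.0647 to 0.354), under total counts without AY036118 (0.0575) and by DESeq2 (0.200).

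**Figure D5:**
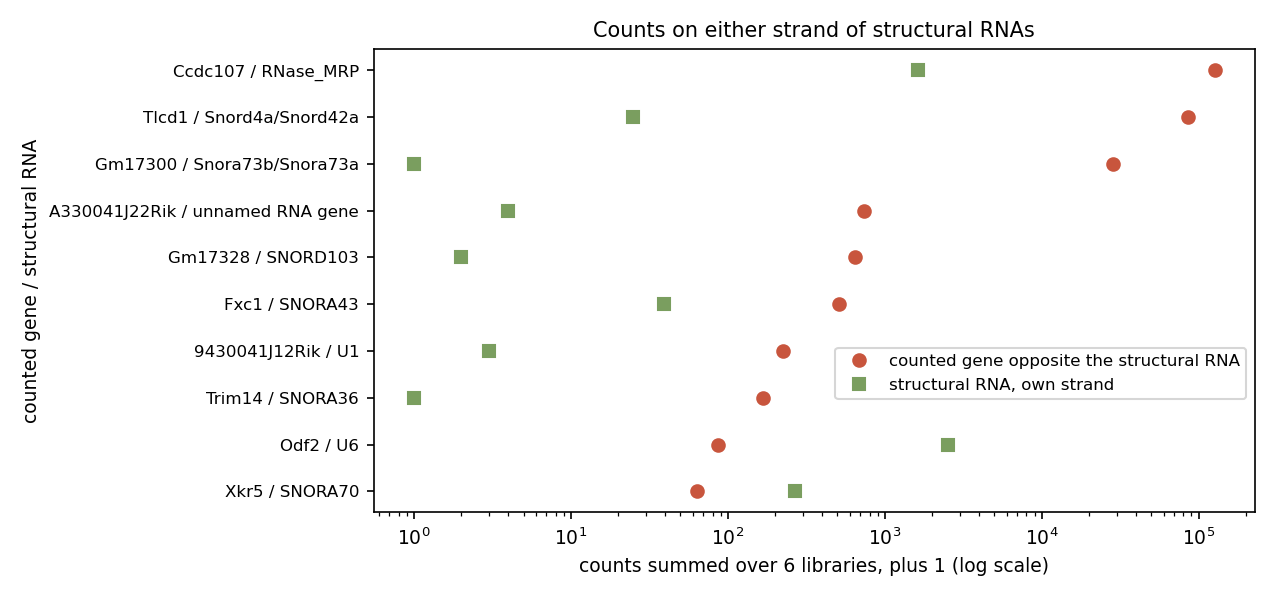
Counts summed over the 6 libraries, plus 1, on a log axis, for the 10 most abundant counted genes that face a structural RNA (red) and for that RNA on its own strand (green). Ccdc107 leads, with 126500 counts against 1637 at RNase_MRP, and the U6 and SNORA70 genes are the ones with more counts on their own strand.

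The proteins of RNase MRP and the machinery of ribosomal RNA were read by 2 routes, since a count may belong to the gene named or to the one opposite. All calls for both lines at genes of these lists and at Cd72, 6 in number, were lost when KO1 and KO2 were fitted as a group of 4 libraries (edgeR adjusted p from 0.421 to 0.763). Of 11 proteins of RNase MRP and its relative RNase P, 10 were annotated and 2 were tested by their own symbol. In KO1 edgeR called 1 of these 2, against 9.79% of all tested genes. Rpp25, a subunit of both enzymes, was called higher in KO1 (1.80 ± 0.44, edgeR adjusted p = 0.00664), from a mean of 11.4 CPM, and lost the call without wild type replicate 1 (1.20, adjusted p = 0.144) and without KO1 replicate 2 (1.76, adjusted p = 0.0581). No counted gene had one of these proteins opposite it.

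Of the RNA polymerase I list, 7 genes were tested by their own symbol and edgeR called 0 in any comparison. Over all tested genes the share called was 6.62% for both lines, 9.79% in KO1, 8.98% in KO2 and 19.3% between the lines. Cd3eap and Tbp, the most abundant, were at 0.16 and 0.08 for both lines. By the gene opposite, 4 were tested and 1 was lower for both lines: Gm16601, opposite Polr1a (the largest subunit of the polymerase), at -0.56 ± 0.06 (edgeR adjusted p = 3.20e-08), with -0.85 in KO1 and -0.26 in KO2. Its KO2 call was lost without wild type replicate 2, KO2 replicate 1 or KO2 replicate 2 (-0.24, -0.24 and -0.25). DESeq2 lost it as well (adjusted p = 0.124). Pdcd2, opposite Tbp, was lower in KO2 (-0.64, edgeR adjusted p = 0.0458), a call lost without any 1 of the 6 libraries (from -0.76 to -0.49). The call was also lost by DESeq2 (adjusted p = 0.315), with no filter (edgeR adjusted p = 0.113) and under total counts (0.0634). DESeq2 size factors in edgeR (adjusted p = 0.0505) and a fit of only KO2 and wild type (0.0628) lost it too.

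Of the ribosomal RNA processing list, 21 of 46 were tested by their own symbol: 1 was higher in both lines, 1 higher in KO1, and 2 higher and 2 lower in KO2, where 6.62%, 9.79% and 8.98% of all tested genes were called, with list medians of -0.01, 0.04 and 0.06 against -0.01, 0.00 and -0.01 over all tested genes. Nhp2, a protein of box H/ACA particles, was at 0.50 ± 0.11 for both lines (edgeR adjusted p = 0.00273) and 0.81 in KO2, and lost the first call without wild type replicate 1 (0.43, adjusted p = 0.0634). Bysl was called in opposite directions, 0.35 in KO1 and -0.36 in KO2, and so by the gene opposite were Srr, opposite Tsr1, at -0.32 and 0.29, and 4930556J24Rik, opposite Pes1 (a factor of large subunit assembly), at -0.26 and 0.55. The KO1 call of 4930556J24Rik was lost without KO1 replicate 1 (edgeR adjusted p = 0.0917) and under both scalings by total counts. Emg1 was lower in KO2 (-1.04), which was lost without either wild type library (-1.05 and -1.01) or KO2 replicate 1 (-0.87). DESeq2 did not call it either (adjusted p = 0.171). Tsr1 was higher in KO2 (0.87), a call lost without any 1 library other than wild type replicate 1. With each library left out in turn its value ranged from 0.57 to 1.27. The call was also lost by DESeq2 (adjusted p = 0.309), with no filter (edgeR adjusted p = 0.0782) and with a replicate block (0.0540). Total counts without AY036118 (edgeR adjusted p = 0.0579) and a fit of only KO2 and wild type (0.0749) lost it too. By the gene opposite, 5 were tested, with 3 lower in KO1, 2 higher in KO2 and 1 lower for both lines. The last was 9530027J09Rik, opposite Utp14a, at -0.22 (edgeR adjusted p = 0.00812). Its call was lost without wild type replicate 1 (-0.17), under total counts (edgeR adjusted p = 0.167) and by DESeq2 (adjusted p = 0.0832). With an overlap of 1 base 10 were tested, and 3 were lower for both lines.

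RNA polymerase III makes the RNase MRP RNA. Of the list of its subunits and factors, 8 were tested by their own symbol. EdgeR called 0 of them against wild type and 1 in KO1 against KO2, where it called 6.62% to 9.79% and 19.3% of all tested genes. Gtf3a was lower in KO1 than in KO2 (-0.41, edgeR adjusted p = 0.0332), which was lost without either KO1 library or KO2 replicate 1 (adjusted p from 0.114 to 0.349). By the gene opposite 9 were tested and 2 were lower for both lines: Cd247, opposite Pou2f1, at -0.42 (adjusted p = 4.14e-06), and Gm16253, opposite Polr3gl, at -0.79 (adjusted p = 0.0495), a call lost without any 1 library other than KO1 replicate 2 (adjusted p from 0.0504 to 0.297). The median was -0.16 against -0.01 over all tested genes, of which 6.62% were called for both lines. Gm16253 kept its call under 1 of 10 alternatives of processing, and lost it with AY036118 left out of the table (edgeR adjusted p = 0.0524). Mtif3, opposite Gtf3a, was higher in KO2 (0.34).

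The genes whose log2 CPM ran most like AY036118 over the 6 libraries, among 2515 genes of at least 20 CPM, were Rnf10 (Pearson r = 0.983), Calhm2 (0.960), 3110002H16Rik (0.955), Zbtb17 (0.949) and Hsp90ab1 (0.938). Those most like Ccdc107 were Mtmr7 (0.968), Rad23b (0.965), Gm16047 (0.951), Sp9 (0.941) and E130304I02Rik (0.932). These 6 points share their libraries and scaling, and the values are a description with no test. Calhm2 had 646 to 779 counts, and the other 9 genes had 20 to 105 counts in each library.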

How the data were processed

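The authors deposited 1 count table for each of 6 RNA libraries, with raw counts of read pairs per gene from featureCounts 2.0.1 with strand setting 1, exons grouped by gene, on mm9 with GENCODE mouse version 1, per the file headers. The submitters' processing notes name bedtools 2.92.2, GATK 4.1.4.0, STAR 2.5.4b, featureCounts 2.0.0, Trim Galore 0.6.4 and Bowtie2, with no role given. No header option asks for reads that map to several places, and by default featureCounts leaves those out. The strand setting decides which of 2 facing genes gets a fragment.

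Genes were tested with edgeR 4.0.16 (R 4.3.3): TMM scaling, filterByExpr with a minimum count of 10, quasi-likelihood fit of 3 group means with 3 residual degrees of freedom, and Benjamini-Hochberg adjustment over 5034 genes. DESeq2 1.42.0 was an alternative, as were 4 other scalings, other filters, tables without AY036118, a replicate block and each library left out. The fit was tested on simulated data. Shares of counts have 95% Wilson intervals. Sequences were read from mm9 and searched with blastn 2.17.0. CPM of RNase_MRP, Ccdc107 and other genes use TMM scaling; log2 CPM for likeness used a prior count of 2. Over genes with at least 10 counts, replicates differed by more than counting error (chi-square over degrees of freedom of 1.28, 1.21 and 1.44 in wild type, KO1 and KO2), so each library counts as 1 replicate.

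Named genes are the members, genes overlapping them and the 2 nearest on each side, the 5 most alike by Pearson r, the 10 most abundant pairs with a structural RNA, and from each list up to 4 called genes or else the 2 most abundant; Gm17431, Nsd1, a 5S_rRNA gene and SNORA17 were added as the next gene in order, the targeted gene and the structural RNA genes called. The members and lists were chosen with earlier results of these data known. The gene opposite is the one that shares most exon bases, at least 50, or 20 for structural RNAs, with 1 and 100 bases as alternatives.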

Additional observations from a re-analysis of the deposited data

Results flagged for a closer look

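The 2 NSD1-/- lines differed from each other at 20 of the genes named in the report, none of them AY036118, Ccdc107 or RNase_MRP. Between the lines edgeR called 19.3% of all tested genes. Many of the 20 were named because they were called, so their number depends on that choice. Each value is the fitted log2 fold change of KO1 against KO2, with an edgeR adjusted p under 0.05. Among genes that face a structural RNA it was -0.71 at Tlcd1, 0.42 at Gm17300, -0.45 at A330041J22Rik and 1.42 at Xkr5. In the ribosomal RNA processing list it was 0.71 at Bysl, 0.98 at Emg1, -0.62 at Nhp2 and -0.78 at Tsr1, and by the gene opposite -0.81 at 4930556J24Rik, -0.35 at 9530027J09Rik and -0.62 at Srr. In the polymerase lists it was -0.41 at Gtf3a, and by the gene opposite -0.59 at Gm16601, 0.52 at Cd247 and -0.43 at Mtif3. At Cd72, a neighbour of Ccdc107, it was -0.43. It was 0.89 at Nsd1, -0.20 at Gm17431, 1.39 at the 5S_rRNA gene and -0.83 at SNORA17. The differences at A330041J22Rik, Emg1, Gtf3a, Tsr1 and Xkr5 lost their calls when single libraries of the knockout lines were left out: A330041J22Rik without replicate 1 of either line (edgeR adjusted p = 0.343 without that of KO1 and 0.127 without that of KO2), Emg1 without KO1 replicate 2 or KO2 replicate 1 (0.103 and 0.120), Gtf3a as given in the report, and Tsr1 and Xkr5 without any 1 of the 4 (0.0737 to 0.164 and 0.0558 to 0.261). Under total counts with and without AY036118 the calls were lost at A330041J22Rik (edgeR adjusted p = 0.109 and 0.132), Gtf3a (0.142 and 0.159), Tsr1 (0.0812 and 0.0902) and Gm17431 (0.187 and 0.291). DESeq2 lost those at A330041J22Rik (adjusted p = 0.192), Gtf3a (0.193), Tsr1 (0.280) and Emg1 (0.145). With no filter on low counts those at Tsr1 and Xkr5 were lost (edgeR adjusted p = 0.0653 and 0.0807), and with a minimum count of 30 that at Gtf3a (0.0549). The calls at Nsd1, 5S_rRNA and SNORA17 were lost as given in the report.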

How the results depend on the processing

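AY036118, which no comparison called, passed the threshold with no filter on low counts in both lines (-0.13) and in KO1 (-0.16). Whether the replicate numbers of the labels pair the libraries could not be settled. The differences between replicates 1 and 2 correlated at 0.0109, -0.00685 and -0.0356 between groups over 5034 genes. Such differences were mostly counting error (chi-square over degrees of freedom of 1.28, 1.21 and 1.44 in wild type, KO1 and KO2), which would hide a pairing. With the replicate number as a block AY036118 passed in both lines (-0.13, edgeR adjusted p = 0.0242) and in KO1 (-0.15, edgeR adjusted p = 0.0248), and 320, 482, 416 and 935 genes were called for both lines, KO1, KO2 and KO1 against KO2 in place of 333, 493, 452 and 971.

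Ccdc107 in KO1 turned from -0.03 to 0.0839 under total counts, 0.0678 under total counts without AY036118, 0.000969 under upper quartile scaling and 0.0281 with a minimum count of 30. Between the lines AY036118 turned from -0.03 to 0.0721, 0.112, 0.00386 and 0.0401 under the same 4 settings, and Ccdc107 from -0.09 to 0.00774 and 0.0495 under the first and second. RNase_MRP between the lines turned from 0.01 to -0.00071 by DESeq2 and -0.0215 with no filter. None of these reversed values passed its threshold.

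DESeq2 called 113, 196, 170 and 402 genes for both lines, KO1, KO2 and KO1 against KO2. When KO1 and KO2 were fitted as a group of 4 libraries, edgeR called 6 genes against 333, and none of the 6 calls at named genes held; differences between the lines then enter the spread.

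With each library left out in turn, AY036118 ranged from -0.20 to -0.0646 in both lines, -0.28 to -0.0133 in KO1, -0.18 to -0.0212 in KO2 and -0.16 to 0.10 between the lines. Ccdc107 ranged from -0.0846 to 0.11, -0.11 to 0.0523, -0.14 to 0.26 and -0.29 to 0.11 in the same order, and RNase_MRP from 0.16 to 0.30, 0.18 to 0.28, 0.0818 to 0.37 and -0.15 to 0.15. The genes called ranged from 216 to 362, 279 to 590, 325 to 425 and 560 to 1067. The share of Ccdc107 in the knockout libraries minus that in wild type ranged from -0.0430 to 0.220 points. In such a fit the group of 1 library is assumed to vary like the others. Of 49 calls at named genes other than the members, 23 held under every alternative run, 26 were lost under at least 1 and 0 reversed. The cause of these changes was not tested. RNase_MRP rests on 236 to 300 counts a library.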
